A study of Mus musculus with 2 samples.

Results

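Histone genes with a probe set of their own were, as a group, close to level between bone marrow stem and progenitor cells labelled as knockout for the transcription factor NRF2 and as wild type, and 1 linker histone gene, H1f2, stood far below its wild-type level. The genes were those whose current symbols mark them as linker histones (H1f) or as core histones of the replication-dependent clusters (H2ac, H2bc, H3c and H4c), or that carry the older Hist symbols. Of 19938 genes with a probe set annotated to exactly 1 symbol, 30 met the rule: 8 of class H1, 4 of H2A, 9 of H2B, 3 of H3 and 6 of H4. Each of the 30 was measured by 1 probe set, so no gene had a second probe set to check it. A further 26 probe sets named several histone genes at once and lay outside the rule. They covered 36 genes that had no probe set of their own, and they are described separately.

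Histones are the proteins around which nuclear DNA is wound. The core histones H2A, H2B, H3 and H4 form the nucleosome particle, and linker histone H1 binds the DNA where it enters and leaves that particle. Most core histone genes lie in clusters of many near-identical copies, are transcribed mainly in S phase, and give mRNAs that end in a stem-loop in place of a poly(A) tail, so their level follows the share of cells copying DNA. Some H1 genes belong to the same clusters, while others are transcribed outside S phase or in germ cells. In blood-forming tissue, stem cells are mostly quiescent and progenitors cycle more often.

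The series held 2 arrays, 1 from Nrf2 knockout and 1 from wild-type mice, both on the C57BL/6J background, aged 8 to 10 weeks, healthy and kept in a germ-free facility. Marrow from 5 mice of each genotype was pooled, KSL cells (c-Kit positive, Sca-1 positive and negative for lineage markers) were sorted, and 1 RNA sample from each pool was hybridised. Nrf2 is encoded by Nfe2l2, and the deleted stretch of the gene is not named in the labels. With 1 array per genotype no test was possible, every value below is a single measurement, and the spread between animals, sorts and amplifications is unknown. In a bulk sample, fewer cells of a type and less RNA per cell cannot be told apart.

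A difference is the knockout value minus the wild-type value on the log2 scale, so −1 is a halving of intensity. Over all 19938 genes the median difference was 0.01 and the middle 95% lay between −0.64 and 0.52. The disagreement between probe sets of the 777 genes that had exactly 2 put the probe-set error of a difference at 0.31 (SD), which covers probe behaviour alone. Nfe2l2 itself stood at 9.07 in the array labelled knockout against 9.16 in the array labelled wild type, a difference of −0.09 that is smaller than the probe-set error. The arrays therefore do not show the loss of the gene, and the genotypes below are those of the labels; whether the probes lie outside the deleted stretch is not known here. Kit, which encodes c-Kit, was at 11.21 and 10.93. Ly6a, which encodes Sca-1, was listed but had no value among the genes with 1 symbol, so Sca-1 could not be checked. Of 15 listed KSL gate and stem cell markers 13 were measured, 5 lower and 8 higher, with a median of 0.10. Markers of neutrophils, which the lineage gate should remove, were lower in the knockout array in 18 of 20 genes. Their summed intensity was 13.05 on the log2 scale in the knockout against 14.22 in wild type, a ratio of 0.445. No detection call was made. Of the 20, Ly6g lay below the all-gene median level of 6.57 in both arrays. Retnlg, Mmp8, Mmp9, Cxcr2, Il1r2 and Ifitm6 lay below it in the knockout array alone, at 5.23 (Ifitm6) to 6.52 (Il1r2). Monocyte-macrophage markers were lower in 13 of 14 genes, with a summed intensity of 11.44 against 11.91. Median differences of the other lineage lists were 0.07 for B lineage, −0.20 for T and NK, 0.03 for erythroid and −0.15 for mast cell and basophil markers.

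Histone promoters share short sequence elements, and the bases upstream of 4 members are shown because they include the member with the largest difference (H1f2), other H1 genes that were close to level (H1f5 and H1f1) and the lowest core histone (H2bc18). Sequences are from RefSeq on GRCm38.p6, 250 bases ending at the base before the annotated start, in the direction of transcription. Capitals mark the TATA box, spelled TATAAA, and the CCAAT box. They also mark the H1 box, named for linker histone promoters and spelled AAACACA, and the octamer bound by OCT1, spelled ATTTGCAT. Each was searched on either strand in this exact spelling alone. Similar letters, such as tatatata near the end of the H1f2 window and tataag near the end of H2bc18, stay in lower case. The lack of a capitalised TATA box in these 2 windows is therefore a matter of spelling. No capitals of different motifs overlap in these 4 windows. H1f2 is at chr13:23738557-23738806 (+ strand), H1f5 at chr13:21780626-21780875 (− strand), H1f1 at chr13:23763418-23763667 (+ strand) and H2bc18 at chr3:96269450-96269699 (+ strand).
H1f2: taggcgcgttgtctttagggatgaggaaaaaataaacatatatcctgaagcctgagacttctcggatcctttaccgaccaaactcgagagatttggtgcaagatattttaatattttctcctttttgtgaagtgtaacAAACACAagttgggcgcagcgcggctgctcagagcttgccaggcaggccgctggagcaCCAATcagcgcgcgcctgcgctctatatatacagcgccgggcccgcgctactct
H1f5: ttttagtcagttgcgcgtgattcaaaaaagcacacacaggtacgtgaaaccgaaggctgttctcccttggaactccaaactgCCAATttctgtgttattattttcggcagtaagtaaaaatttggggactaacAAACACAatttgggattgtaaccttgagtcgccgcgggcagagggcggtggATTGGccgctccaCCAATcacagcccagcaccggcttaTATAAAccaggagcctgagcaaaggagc
H1f1: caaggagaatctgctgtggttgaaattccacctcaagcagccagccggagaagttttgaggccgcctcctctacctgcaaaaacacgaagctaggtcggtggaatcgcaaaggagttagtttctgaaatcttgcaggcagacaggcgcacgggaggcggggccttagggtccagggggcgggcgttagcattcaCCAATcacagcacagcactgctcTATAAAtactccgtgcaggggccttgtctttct
H2bc18: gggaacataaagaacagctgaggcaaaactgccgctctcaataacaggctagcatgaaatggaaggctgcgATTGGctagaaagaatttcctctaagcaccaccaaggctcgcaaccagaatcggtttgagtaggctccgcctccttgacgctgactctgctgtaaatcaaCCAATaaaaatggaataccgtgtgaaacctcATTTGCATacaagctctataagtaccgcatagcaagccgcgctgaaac

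RefSeq promoters were matched for 26 of the 30 members; H2bc4, H2bc21, H3c7 and H4c14 had no entry. The H1 box was found in 4 of the 8 H1 windows (H1f2, H1f3, H1f5 and H1f6), between 112 and 122 bases upstream of the start. The same letters were in 2 of 4 H2A windows (H2ac1 and H2ac4), 2 of 7 H2B windows (H2bc1 and H2bc14) and 0 of 7 H3 and H4 windows, so they were not confined to H1; in H2bc14 they began 110 bases upstream. In all 8 of 26 member windows held them, 7 separate matches because the H2ac1 and H2bc1 windows overlap, against 6.25% of all 32851 promoter windows of the same length. In H1f2 it began 112 bases upstream and the CCAAT letters 54 bases upstream; in H1f5 the H1 box began 117 bases upstream. H1f1 had the CCAAT letters 56 bases upstream and no H1 box in this window. The octamer was found in 5 of 7 H2B windows and 3 of 4 H2A windows, in 0 of 8 H1 windows and in 0 of 7 H3 and H4 windows, against 1.60% of all promoters. Some H2A and H2B genes are transcribed away from each other and their windows overlap, so these 8 windows held 6 separate octamers. The CCAAT letters were in 20 of 26 member windows against 33.8% of all promoters, and TATAAA in 14 of 26 against 12.4%. Through the same overlap, 41 of 47 CCAAT matches and 17 of 19 TATAAA matches were separate. The only TATAAA of H2ac8 is that of H2bc8 read on the other strand. Matches were counted anywhere in the window, for TATAAA from 10 (H2bc3) to 250 (H4c6) bases upstream, so not all lie where a TATA box acts. The core letters of the antioxidant response element, to which NRF2 binds, were searched as TGACNNNGC on both strands; H1f8, H2ac1 and H2bc18 held a match, 3 of 26 against 10.2% of all promoters, and H1f2 did not. These letters are not capitalised in the H2bc18 sequence, where they begin 98 bases upstream. A match is a description of these letters and not evidence of binding.

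In the linker class 1 gene differed widely and the other 7 little. H1f2 (older symbol Hist1h1c), a replication-dependent linker histone, had a log2 intensity of 9.66 in the knockout against 10.84 in wild type. The knockout signal was 43.9% of the wild-type signal, 2.28-fold lower, a difference of −1.19. It was the only one of the 30 genes that differed by at least 2-fold; over all genes 0.602% were lower by 2-fold or more and 0.311% were higher by as much. H1f2 ranked 70 from the lowest among the 19938 genes, and its difference exceeded the probe-set error SD of 0.31. Both of its values lay well above the all-gene median level, where 0.762% of genes were at least 2-fold lower. Among the 703 genes whose mean signal was at least that of H1f2, 1 other was as low, the neutrophil calprotectin gene S100a8. Neutrophil markers as a list had a median of −1.40 in the same comparison; their part in the H1f2 difference was not tested. The platform annotation gave cDNA clones for the H1f2 probe set and no RefSeq transcript, so which form of the transcript it reads is not known here.

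The other H1 genes stayed within 0.30 of their wild-type value. H1f5, another S phase linker histone, stood at 8.46 in the knockout against 8.59 in wild type, a difference of −0.13. H1f1 stood at 7.42 and 7.46, a difference of −0.04. H1f3 stood at 5.04 and 5.01, below the all-gene median, and the sign of its difference of 0.03 turned with quantile normalization and with loess. These 3 genes share the chromosome 13 clusters and the S phase transcription of H1f2, and their differences were smaller than the probe-set error. H1f10, a linker histone made outside S phase, differed by −0.30, at 7.41 against 7.70. The germ cell forms were under the all-gene median in both arrays: the testis gene H1f6 at 6.00 and 6.20, the spermatid gene H1f7 at 6.40 and 6.46, and the oocyte gene H1f8 at 5.68 and 5.56. H1f4 had no probe set of its own; the probe set it shares with H2bc6 read 7.16 and 7.51, a difference of −0.35. Over the 8 H1 genes the median was −0.09, and the mean was −0.22.

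**Figure D1:**
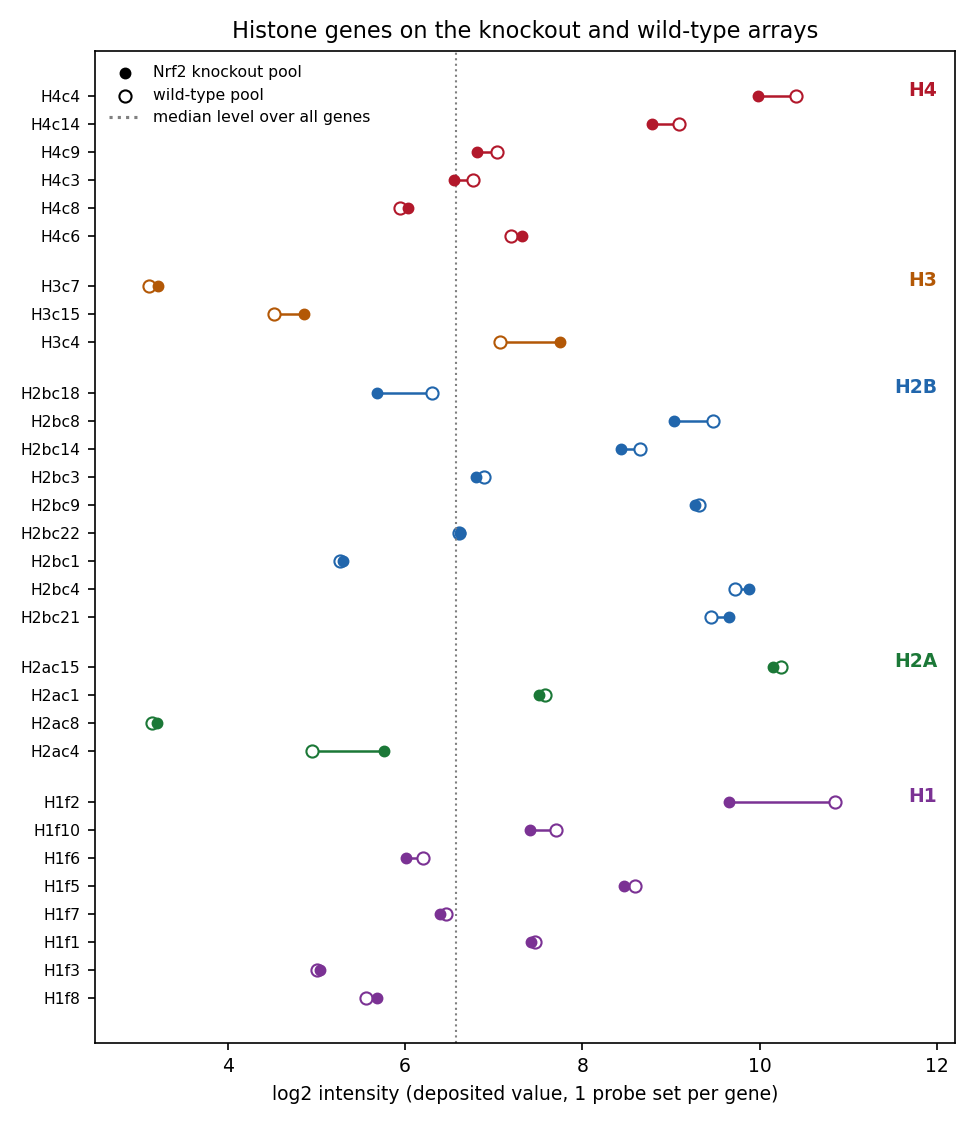
Log2 intensity of each of the 30 histone genes (horizontal axis) in the knockout pool (filled points) and the wild-type pool (open points), grouped by class, with the median level over all genes as a dotted line. The longest line is H1f2, from 9.66 in the knockout to 10.84 in the wild-type array; most other pairs of points nearly touch.

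H4 genes were lower in 4 of 6 cases, by moderate amounts. H4c4 stood at 9.98 in the knockout against 10.41 in wild type, a difference of −0.43. H4c14, in the smaller cluster on chromosome 3, stood at 8.79 and 9.09, a difference of −0.31. H4c9 and H4c3 differed by −0.23 and −0.21, and H4c8 and H4c6 by 0.09 and 0.13. The class median was −0.22 with no gene at least 1.5-fold different, where 3.15% of all genes were lower and 1.74% higher by as much. H4 genes have near-identical coding sequences, and 5 probe sets were annotated to the same 11 H4 genes and gave 4 distinct pairs of values. These 5 were lower too, at 9.65 to 10.43 in the knockout against 10.06 to 10.74 in wild type, with differences of −0.41 to −0.31. They read overlapping sets of transcripts and are not independent of each other or of H4c9, H4c3, H4c6, H4c8 and H4c4, which they also name. A sixth shared probe set, for H4c17 and H4c11, was at 4.21 and 4.30, near the bottom of the scale. The 6 single-gene values ran from −0.43 to 0.13, and the 5 shared values from −0.41 to −0.31. H4c6 and H4c8, which the 5 name, were higher, and H4c14, which they do not name, was lower. The shared values lay near the probe-set error SD.

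In H3 the probe sets of single genes read higher in the knockout array and the shared probe sets read level. H3c4 stood at 7.75 in the knockout against 7.07 in wild type, 1.60-fold higher. H3c15 stood at 4.86 and 4.52, and H3c7 at 3.22 and 3.11, both far below the all-gene median level. All 3 single-gene values were therefore higher in the knockout array, with a median of 0.34. The 10 probe sets annotated to 12 H3 genes together, which include these 3, read 8.59 to 8.90 in the knockout against 8.61 to 8.91 in wild type. Their differences lay between −0.03 and 0.00 with a median of −0.02. The probe sets of H3c4 and H3c15, like that of H1f2, were annotated to cDNA clones with no RefSeq transcript; these were the 3 such members, and their differences of 0.68, 0.34 and −1.19 were among the 7 largest in size.

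H2B was the class with most members, and its genes spread to both sides of 0. H2bc18, on chromosome 3, was the lowest at 5.68 in the knockout against 6.30 in wild type, a difference of −0.62, with both values under the all-gene median. H2bc8 stood at 9.04 and 9.47, a difference of −0.43, and H2bc14 at 8.43 and 8.65, a difference of −0.22. On the other side, H2bc21 stood at 9.66 and 9.45, a difference of 0.20, and H2bc4 at 9.88 and 9.72, a difference of 0.15. H2bc3, H2bc9 and H2bc22 lay within 0.09 of 0. So did H2bc1, the testis H2B, at 5.30 and 5.26, whose sign turned under loess. The class median was −0.05. The 7 probe sets shared by up to 15 genes, 1 of them outside the rule, read 10.58 to 10.93 in the knockout against 10.70 to 11.07 in wild type, and all 7 were lower, by −0.14 to −0.10.

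In H2A, 1 gene lay apart from the rest of its class. H2ac4 stood at 5.76 in the knockout against 4.95 in wild type, 1.76-fold higher, the highest difference of the 30 members at 0.82. Both values lay under the all-gene median. H2ac15 stood at 10.15 and 10.25, the testis gene H2ac1 at 7.51 and 7.58, and H2ac8 at 3.20 and 3.15, all within 0.10 of level. The 2 probe sets shared by 19 or more H2A-type genes, the variant gene H2ax and H3c4 among them, differed by −0.07 and 0.10. The H2A median was 0.00 and its sign turned under quantile normalization.

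**Figure D2:**
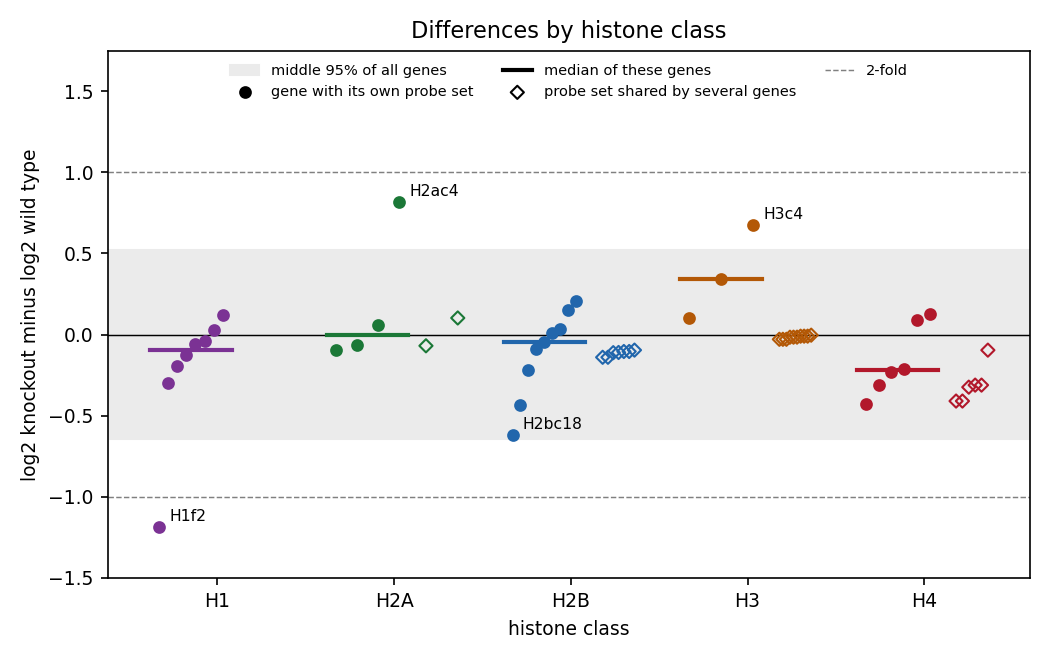
Log2 knockout minus log2 wild type (vertical axis) by histone class. Filled points are genes with their own probe set, with a bar at their median. Open diamonds are probe sets shared by several genes, placed under the class of most of those genes. The probe set of H2bc6 and H1f4 is not drawn. The grey band holds the middle 95% of all genes and dashed lines mark 2-fold. H1f2 at −1.19 lies below the band, H2ac4 at 0.82 and H3c4 at 0.68 above it, and H3 shared probe sets sit at 0 while H4 shared probe sets lie mostly between −0.41 and −0.31.

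Counted together, 17 of the 30 members were below 0, against 46.9% of all genes, and their median difference was −0.05. At least 1.5-fold lower were 2 members, H1f2 and H2bc18, against 3.15% of all genes, and at least 1.5-fold higher were 2, H2ac4 and H3c4, against 1.74%. The shares are small numbers of genes, and members of a class share sequence. Brighter and dimmer members leaned in opposite directions. Of the 19 members with a mean level at or above the all-gene median, 14 were lower in the knockout array, with a median of −0.10, where 52.9% of all genes at that level were lower. Of the 11 members below it, 3 were lower and 8 higher, with a median of 0.06, where 40.9% of all genes were lower. The 22 core histone genes were split evenly, 11 below and 11 above 0, with a median of −0.02. The 26 shared probe sets, which are read on overlapping genes, held 23 distinct pairs of values. They were lower in 25 cases, against 46.9% of all genes, with a median of −0.10, and none of them differed by 1.5-fold. Of these, 10 were the H3 probe sets, which were close to level, with differences between −0.03 and 0.00. The classes are measured on the same 2 arrays, and no test between them was possible.

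Genes next to each other in the clusters differed in sign and size. On chromosome 13, 23 members lay in order with a median of −0.05, and the 4 members on chromosome 3 had a median of −0.05 as well. H1f2 lies next to the iron-regulation gene Hfe on one side, which was at 5.71 and 5.92, and on the other side next to H2bc3 at 6.80 and 6.89 among genes measured here. The next gene beyond H2bc3 is H2ac4, so the lowest and the highest member were separated by 1 measured gene with a difference of −0.09. H3c4, at 0.68, lies between H2bc8 and H4c4, at −0.43 each. On chromosome 3, H2bc18 at −0.62 lies next to H4c14 at −0.31, which follows H3c15 at 0.34 and H2bc21 at 0.20.

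**Figure D3:**
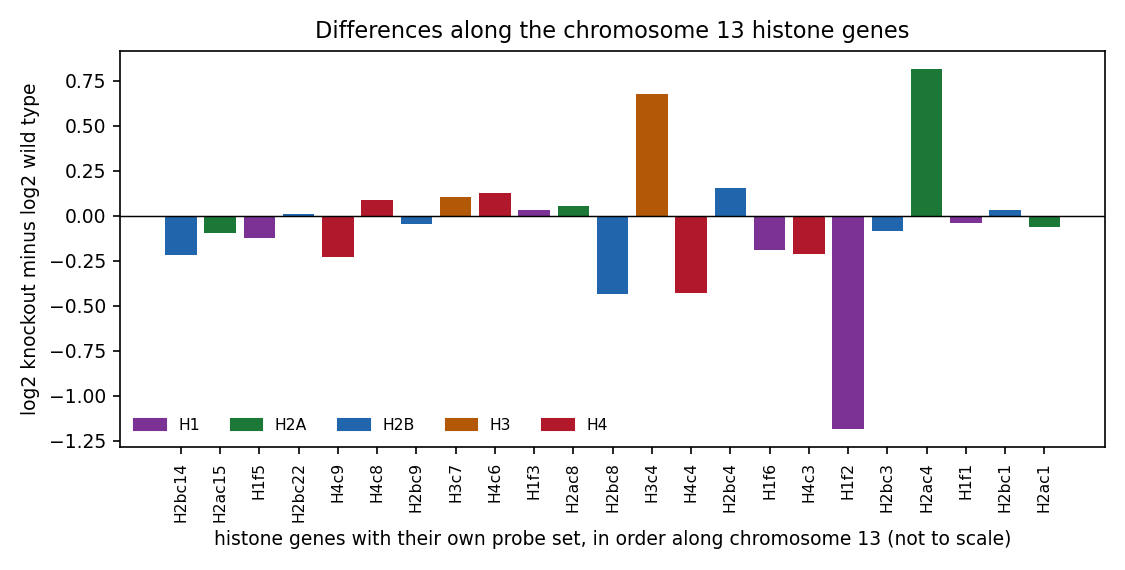
Log2 knockout minus log2 wild type (vertical axis) for the 23 chromosome 13 members in their order along the chromosome, not to scale, coloured by class. Bars of both signs lie side by side; H1f2 at −1.19 and H2ac4 at 0.82 stand 2 places apart.

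Genes that mature histone mRNA, load histones onto DNA or replace them were also close to level as lists. Of 19 genes of histone mRNA maturation, 10 were lower and 9 higher, with a median of −0.06. In this list 1 gene was at least 1.5-fold higher, against 1.74% of all genes. Slbp, which binds the histone stem-loop, stood at 9.47 in the knockout against 9.23 in wild type. Npat, the cyclin E-CDK2 substrate that activates histone transcription, stood at 7.39 and 7.45, and Casp8ap2, which encodes its partner FLASH, at 8.94 and 9.15. Of the genes for proteins of the U7 particle, which acts in histone pre-mRNA cleavage, Lsm10 was level at 8.98 and 8.97. Lsm11 stood at 7.52 and 6.95, a difference of 0.56. Zfp473, which encodes a protein of the same machinery, was the highest of the list at 0.85, from 5.25 to 6.10, both under the all-gene median. Ncbp2, a cap-binding subunit, differed by 0.56, and Coil, which encodes the Cajal body protein coilin, by 0.44.

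Of 23 chaperone and deposition genes measured, 11 were lower and 12 higher, with a median of 0.01 whose sign turned with centring on the array median. In this list 0 were at least 1.5-fold different, where 3.15% of all genes were lower and 1.74% higher by as much. Chaf1a, the large subunit of the CAF-1 chaperone that deposits H3 and H4 behind the replication fork, stood at 9.64 against 9.12, a difference of 0.51, while its partner Chaf1b differed by −0.03. The H3-H4 chaperones Asf1a and Asf1b differed by −0.37 and 0.24, Nasp by −0.06, Mms22l by −0.39 and Ubn1 by 0.39. Replacement variants, which are made outside S phase as well, had a median of −0.06 over 8 genes, with the centromeric H3 Cenpa at 0.56, H2az2 at −0.29, Macroh2a2 at −0.18 and H2az1 at −0.07. Among 34 genes active in S phase 23 were higher and 11 lower, with a median of 0.07. All 34 had a mean level at or above the all-gene median, where 52.9% of all genes were lower and the median was −0.02. Of the 34, 1 was at least 1.5-fold lower, against 3.15% of all genes. That gene was Rfc3, a subunit of the clamp loader, at 8.68 against 9.46, a difference of −0.78. The nucleotide synthesis genes Tyms and Tk1 differed by −0.58 and 0.56, and Ung, which removes uracil from DNA, by 0.58. No member of these 4 lists differed by 2-fold, where 0.602% of all genes were lower by as much and 0.311% higher. With 8 to 34 genes per list, a count of 0 is close to those shares. H1f2 lay below every gene of the 4 lists.

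**Figure D4:**
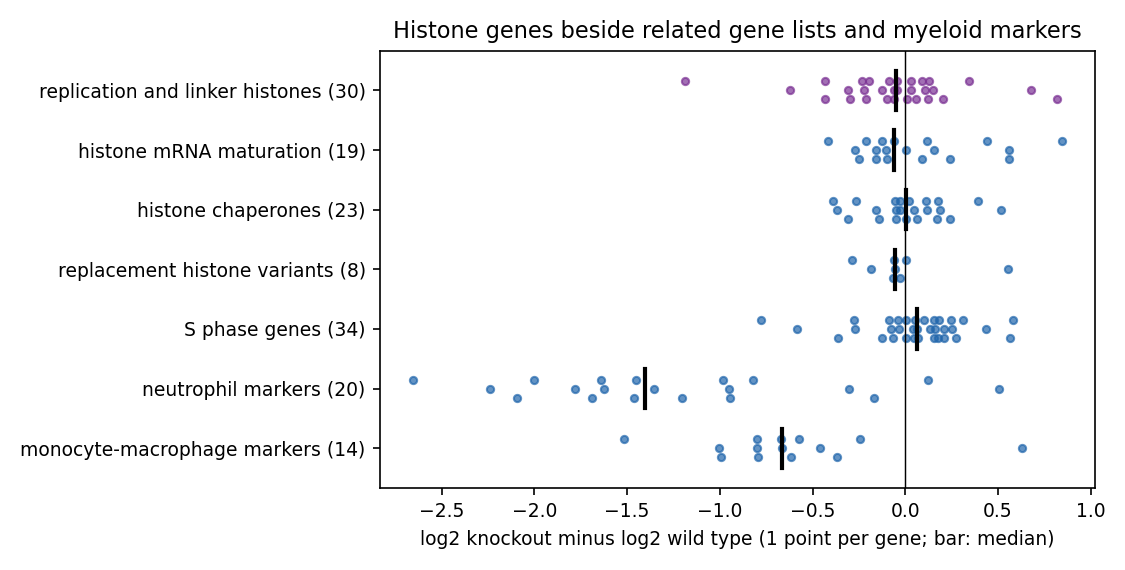
Log2 knockout minus log2 wild type (horizontal axis) for each gene of the histone set, 4 related lists and 2 lists of myeloid markers, with the median of each as a bar and the number of genes in brackets. The histone set and the related lists centre near 0, with medians of −0.06 to 0.07, while neutrophil and monocyte-macrophage markers centre at −1.40 and −0.67; H1f2, at −1.19, is the leftmost histone point.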

How the data were processed

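Per the labels' protocols, KSL cell RNA was purified on RNeasy micro columns, NuGEN Ovation kits served for amplification and biotin labelling, and the arrays were Affymetrix Mouse Gene ST 1.0. The labels do not say whether the kit primes from poly(A) tails, which replication-dependent histone mRNAs lack. For each probe set and array the authors deposited 1 intensity on a log scale, read here as log2 from its range. Partek is named in the submitters' processing notes, with no version; how background was corrected and arrays were normalized is not stated there or in the labels. The sorted values of both arrays differ by at most 0.0866, and a shift of all genes could not be seen in such values.

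Of 28853 probe sets, 21789 had 1 symbol in the platform annotation, 1621 several and 5443 none. Probe sets of a gene were averaged. All 30 members matched GRCm38.p6 by Entrez ID, which changed 0 symbols and gave gene order. No filter on level was applied; a level of 6.57, the median over genes, is used as a landmark. A difference was counted at 2-fold, or at 1.5-fold. Named were all H1 genes, the extremes of each class, members past 1.5-fold, the up to 4 largest differences in each of the 4 related lists and set genes of histone mRNA maturation and deposition. Members, lists and rules were chosen with earlier results of these data known. The scripts were tested on simulated data. Alternatives were 3 scalings (median, quantile, loess), level filters, the brightest probe set, 1.5-fold, the mean, and other memberships. Python 3.11.15, numpy 2.4.6, pandas 2.3.3 and statsmodels 0.14.6 were used.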

Additional observations from a re-analysis of the deposited data

How the results depend on the processing

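The H1f2 difference of −1.19 lay between −1.20 and −1.17 under median centring, quantile normalization and loess. The sorted values of both arrays already differed by at most 0.0866, so these scalings could move any value only little. Under them 3 of 90 single-gene values turned sign, all in H1f3 and H2bc1. Quantile normalization turned the H2A median to 0.0032. Taking the probe set of highest mean changed no value, since each member has 1. With the level filter at the median, the H1 median was −0.21 over 4 genes and H3 was left with 1 gene at 0.68. At the 75th percentile, 8 of 10 members were below 0 with a median of −0.17, the H1 median was −0.66 and the H4 median −0.37, over 2 genes each. The mean in place of the median gave −0.22 for H1 and 0.18 for H2A. Counting at 1.5-fold gave 2 lower and 2 higher members. Adding the shared probe sets whose symbols all met the rule put 34 of 47 units below 0 and the H3 median at −0.010. Those added were 10 for H3, 6 for H4 and 1 for H2bc6 and H1f4. Shared H2A and H2B probe sets each name a gene outside the rule and were left out. The added probe sets read overlapping genes, so the 47 units are not independent. Without H1f2, the only member past 2-fold, the count at least 2-fold lower is 0 by definition. Alternatives chosen after seeing the data left out members with no RefSeq transcript or germ cell members. The first also leaves out H1f2, so its count of 0 members at least 2-fold lower follows from that, and H3 was 1 gene at 0.11. Without germ cell members the H2A median was 0.056. Each class holds 3 to 9 genes, and the 2 arrays limit the precision of every value.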
